A study of Mus musculus with 3 samples.

Results

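The genes described here make and load the peptides that MHC class I molecules show to CD8+ T cells. They are 10 genes, B2m, Tap1, Tap2, Tapbp, Psmb8, Psmb9, Psmb10, Erap1, Nlrc5 and H2-M3, named for their place in the pathway. On the array they are measured by 17 probe sets annotated with a member's symbol and no other gene's, out of 45037 probe sets and 18193 named genes. Among them 2, of Tap1 and Psmb8, carry a name ending that marks probes shared with other transcripts. The probe set of each member with the highest mean over the arrays stands for the gene, and its other probe sets are given beside it.

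Macrophages were compared between a mammary tumor, the lung with its metastases and a healthy source, to ask how macrophages of primary and metastatic tumors differ. BMDM were bone marrow-derived macrophages, differentiated in culture from the marrow of healthy mice, and the sources used here do not give their strain or age. pTAMs were tumor-associated macrophages from the primary tumor that 4T1 cells, a BALB/c mammary carcinoma line, formed in the mammary fat pad of BALB/c mice inoculated at 5 to 6 weeks of age, and mTAMs were those of the matched metastatic lung. The tumors had grown for 5 weeks, and no drug or altered allele is named for any group. Cells of all groups were sorted as CD11b+ and F4/80+, markers that some other myeloid cells of the lung and tumor share. The TAMs had in addition passed through enzyme digestion and a density gradient, and the whole lung was the source of the mTAMs, so resident lung macrophages could enter that sort. One array was hybridised per group, so there is no replicate, no SD and no test of any difference. The sources used here do not say how many mice gave each RNA. The differences below compare these 3 arrays, not the conditions.

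In class I processing, proteasomes cut cytosolic proteins into peptides, the transporter TAP carries the peptides into the endoplasmic reticulum, and tapasin helps to place them in the groove of a heavy chain bound to beta-2 microglobulin. Interferon-gamma is known to make cells swap the catalytic subunits of the proteasome for immunosubunits, encoded by Psmb8, Psmb9 and Psmb10, whose cuts favor peptides that fit class I. NLRC5 is the transactivator of class I genes, the counterpart of CIITA for class II. Macrophages use the pathway to show peptides of their own and, by cross-presentation, of material they have engulfed.

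4 members lie side by side on chromosome 17, in the gene order Psmb9, Tap1, Psmb8 and Tap2. Psmb9 and Tap1 start head to head, with 225 bases between their starts, so a single stretch is upstream of both. That stretch is shown because both genes were higher in TAMs, and the stretches upstream of B2m and Psmb8 are shown because they hold motifs of the factors that carry interferon and inflammatory signals. All were taken from RefSeq on GRCm38.p6, plus strand, 5′ to 3′. Capitals mark matches to the searched motifs.

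Between Psmb9 and Tap1, chr17:34187331-34187555: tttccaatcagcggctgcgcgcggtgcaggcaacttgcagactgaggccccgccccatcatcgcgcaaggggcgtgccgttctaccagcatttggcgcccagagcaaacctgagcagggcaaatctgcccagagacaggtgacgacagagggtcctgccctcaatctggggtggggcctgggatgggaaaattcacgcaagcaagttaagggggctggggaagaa

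B2m upstream, chr2:122147437-122147686: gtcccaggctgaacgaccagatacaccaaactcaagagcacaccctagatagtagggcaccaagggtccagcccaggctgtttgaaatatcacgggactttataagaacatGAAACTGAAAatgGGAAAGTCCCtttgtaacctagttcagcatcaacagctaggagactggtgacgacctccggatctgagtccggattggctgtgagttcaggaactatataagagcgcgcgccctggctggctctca

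Psmb8 upstream, chr17:34197945-34198194: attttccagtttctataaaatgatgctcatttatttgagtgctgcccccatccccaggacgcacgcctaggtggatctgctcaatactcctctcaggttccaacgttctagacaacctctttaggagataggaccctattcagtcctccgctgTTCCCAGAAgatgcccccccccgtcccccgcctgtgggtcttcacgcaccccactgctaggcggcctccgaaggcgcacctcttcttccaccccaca

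Windows from 250 bases before to 50 after the start were at hand for 8 of the 10 members. Nlrc5 and Tap2 had no window and were not searched. The windows were searched on both strands for 3 motifs. The first was GAAA, any 2 bases, then GAAA, the form of an interferon-stimulated element. It was found in B2m, at positions -139 to -130 from the start, and in Erap1, against 3.44% of 32851 windows of all genes. The gamma-activated site TTCNNNGAA was found in Psmb8, at positions -97 to -89, and in H2-M3, against 8.30% of all windows. The NF-kappaB form GGG, any 2 bases, then TTTCC was found in B2m, on the opposite strand at positions -126 to -117, against 1.63% of all windows. Both motifs of B2m lie near each other without overlap. The stretch shared by Psmb9 and Tap1 held none of these letters, which says nothing of the factors themselves. A match is a description of letters and not a binding site.

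Values are RMA values, log2 of the signal of a probe set after background correction and normalization between arrays. A gene was compared between 2 arrays when it exceeded 5.30 on at least 1 of them, the level below which 95% of 84 probe sets of smell, taste and pheromone receptor genes lay. All 10 members exceeded this floor on all 3 arrays, with 14 of their 17 probe sets, and the other 3 probe sets all belonged to Tap1 and exceeded it on none. A difference of at least 2-fold, 1 on the log2 scale, was counted.

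All 10 members were higher in pTAMs than in BMDM, and 4 of them at least 2-fold: Nlrc5, Tap1, Tap2 and Psmb9. All 10 also lay above 0 under median-centering, quantile and cyclic loess scaling of the arrays. Of all 11859 genes compared here, 8.78% were higher by this measure and 7.5% lower, and no member was lower. The median difference of the members was 0.54, beside -0.05 over all compared genes, whose middle quartiles ran from -0.41 to 0.17. A difference above 0 was seen for 34.6% of all compared genes. In such bulk samples, fewer cells of a type and less RNA per cell cannot be told apart.

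In mTAMs against BMDM, the members past 2-fold were 2, Nlrc5 and Tap2, both higher, where 11.5% of 11945 compared genes were higher and 14.4% lower. Their median difference was 0.29, beside -0.11 over all compared genes. Under cyclic loess scaling 4 members were 2-fold higher and their median was 0.55. 6 members lay above 0, 3 below and Psmb10 at 0, and under cyclic loess scaling 8 lay above 0. Of all compared genes, 32.9% lay above 0. In mTAMs against pTAMs no member differed 2-fold in either direction, where 5.36% of 11801 compared genes were higher and 2.58% lower. 9 of the 10 members were lower in mTAMs than in pTAMs, with a median of -0.39 beside -0.06 over all compared genes. Only 33.8% of all compared genes lay above 0 there, so most genes were not higher in mTAMs. Under cyclic loess scaling B2m and Tapbp turned and 7 members were lower. The pTAMs and mTAMs comparisons with BMDM share the BMDM array, so that a value particular to that array would enter both.

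**Figure D1:**
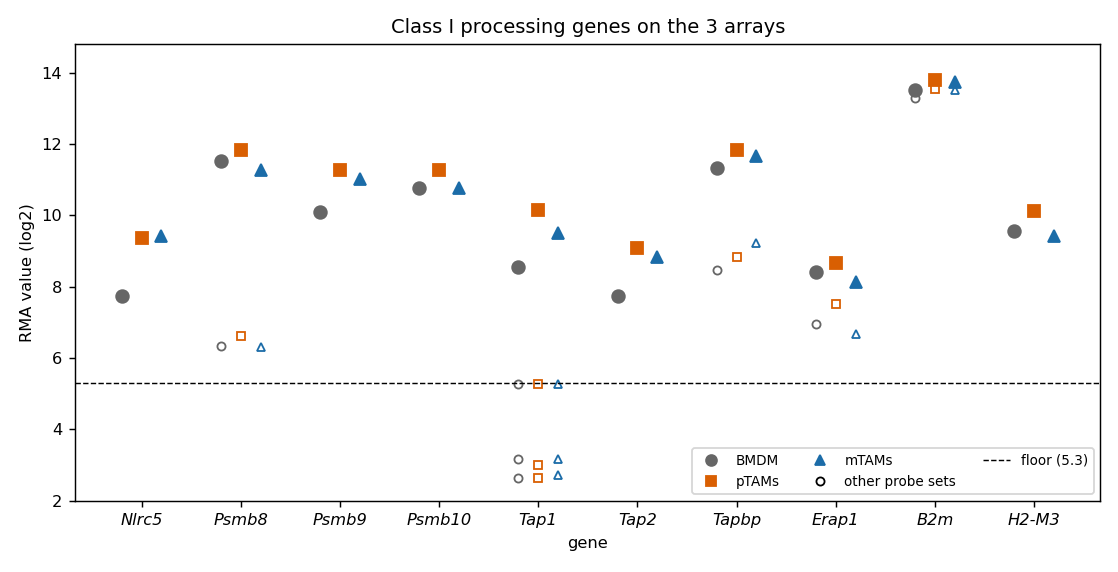
RMA values (log2, vertical axis) of the 10 genes on the BMDM (circles), pTAM (squares) and mTAM (triangles) arrays. Filled symbols are the probe set read for the gene, open symbols its other probe sets, and the dashed line is the floor at 5.3. Nlrc5, Tap1, Tap2 and Psmb9 stand lowest in BMDM, and the probe set read for B2m lies at 13.51 or above on all 3 arrays.

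The transactivator of the pathway, Nlrc5, had the largest difference among the members in both comparisons with BMDM, though under quantile scaling Tap1 equalled it in pTAMs. Its value was 7.73 in BMDM, 9.37 in pTAMs and 9.42 in mTAMs, 3.12-fold and 3.23-fold above BMDM. It was the only member that was not lower in mTAMs than in pTAMs, and the difference between them was 0.05. In pTAMs against BMDM, 5.14% of the compared genes had a larger difference, and in mTAMs against BMDM 6.67%.

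Tap1 and Tap2 encode the chains of the peptide transporter. Tap1 was 8.54 in BMDM, 10.16 in pTAMs and 9.50 in mTAMs. Tap2 was 7.74, 9.09 and 8.82 on the same arrays. Both were lowest in BMDM and highest in pTAMs. Tap1 was 3.07-fold higher in pTAMs and 1.95-fold higher in mTAMs than in BMDM, and Tap2 2.55-fold and 2.11-fold. In mTAMs Tap1 lay just under the 2-fold limit, with a log2 difference of 0.96, and Tap2 just over it, with 1.08. The lower Tap1 value in mTAMs than in pTAMs, by 0.66, was one of the 2 largest differences of any member between the TAM arrays. The other Tap1 probe sets held 5.27 on all 3 arrays, 3.18, 2.99 and 3.18, and 2.63, 2.63 and 2.72. All of these lie under the floor, so the Tap1 difference rests on 1 probe set.

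The immunosubunits differed unequally from BMDM. Psmb9, which encodes beta1i, was 10.10 in BMDM, 11.27 in pTAMs and 11.02 in mTAMs. That was 2.25-fold higher in pTAMs and 1.89-fold in mTAMs. Psmb8, which encodes beta5i, was 11.53, 11.82 and 11.27, and its other probe set, marked as shared, 6.34, 6.62 and 6.31. Both probe sets were highest in pTAMs and lowest in mTAMs, and no value was more than 1.22-fold from BMDM. Psmb10, which encodes beta2i, was 10.77 in BMDM, 11.28 in pTAMs and again 10.77 in mTAMs. Psmb8 lies between Tap1 and Tap2 on the chromosome, and with 0.29 in pTAMs it had the smallest difference of the 4 neighbouring members, against 1.17 for Psmb9, 1.62 for Tap1 and 1.35 for Tap2.

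The constitutive subunits that the immunosubunits replace were lower in both TAM arrays than in BMDM. Psmb5 (beta5) was 11.16 in BMDM, 10.35 in pTAMs and 10.08 in mTAMs. Psmb6 (beta1) was 11.18, 10.56 and 10.13, and Psmb7 (beta2) 10.31, 9.76 and 9.41. All 3 were highest in BMDM and lowest in mTAMs. None was 2-fold lower in pTAMs and 2 of 3, Psmb5 and Psmb6, were in mTAMs, though none under cyclic loess scaling, where their median in mTAMs was -0.83 in place of -1.05. Levels of different probe sets cannot be compared, so only their differences between arrays were set against each other. Such differences also varied between probe sets of the same gene, by the spread given below. Between pTAMs and BMDM the difference of Psmb8 exceeded that of Psmb5 by 1.10, that of Psmb9 exceeded Psmb6 by 1.79, and that of Psmb10 exceeded Psmb7 by 1.06. The mean over the 3 pairs was 1.32, a shift of 2.49-fold towards the RNA of the immunosubunits. Proteins of the proteasome were not measured on these arrays. Between mTAMs and BMDM the pairs gave 0.82, 1.97 and 0.90, with a mean of 1.23 or 2.35-fold. Under the 3 other scalings these means ran from 1.31 to 1.32 in pTAMs and from 1.21 to 1.24 in mTAMs. A shift of a whole array cancels in them, so median-centering could not change them. So Psmb8 and Psmb10, at or near their BMDM level in mTAMs, still differed relative to their constitutive partners, because the partners were lower. Between mTAMs and pTAMs the mean was -0.09, with pairs of -0.28, 0.18 and -0.16.

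The other proteasome genes were read the same way. Of the 11 other core subunits none differed 2-fold in any comparison, with a median of -0.11 in pTAMs and -0.52 in mTAMs against BMDM. Of 9 activator and assembly genes none differed 2-fold in pTAMs, and 3 assembly chaperones were lower in mTAMs, Psmg2 by 1.17, Psmg1 by 1.05 and Psmg4 by 1.02, with a median of -0.68 for the list. The interferon-inducible activator subunit Psme1, singled out after its values were seen, was 11.49 in BMDM, 12.08 in pTAMs and 11.53 in mTAMs. It was highest in pTAMs and close to BMDM in mTAMs, the order that Psmb10 showed. Under cyclic loess scaling none of the 3 assembly chaperones reached 2-fold.

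**Figure D2:**
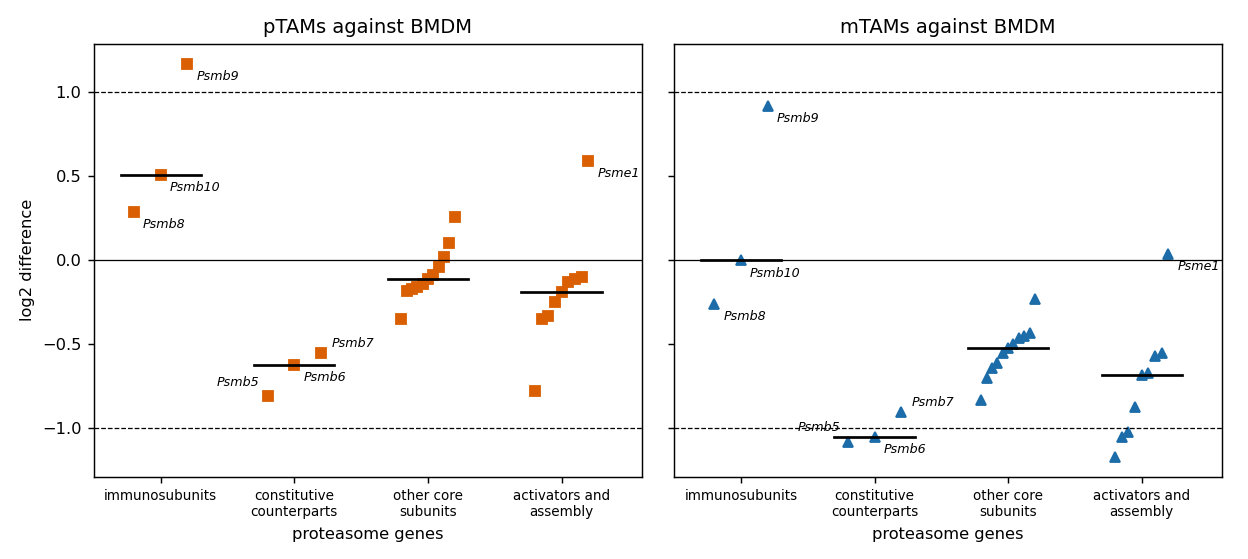
Log2 difference (vertical axis) of each proteasome gene in pTAMs and in mTAMs against BMDM, by class of subunit. Points are genes, bars the median of a class, and dashed lines mark 2-fold. The constitutive counterparts have medians of -0.62 and -1.05, and Psmb9 stands highest in both panels at 1.17 and 0.92.

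Tapbp encodes tapasin, the chaperone that bridges the transporter and the heavy chain. It was 11.32 in BMDM, 11.84 in pTAMs and 11.66 in mTAMs, 1.43-fold and 1.27-fold above BMDM. Its other probe set was 8.47, 8.83 and 9.21, so both were lowest in BMDM, but they put the TAM arrays in opposite order, with -0.18 and 0.38 for mTAMs minus pTAMs. Of 7 other loading chaperones, among them calreticulin, calnexin and ERp57, 1 was at least 2-fold higher in pTAMs and none in mTAMs, and the medians were -0.29 and -0.50. The one was Tapbpl, encoding the tapasin-related peptide editor TAPBPR, with 7.37 in BMDM, 8.43 in pTAMs and 8.18 in mTAMs, and under median-centering it did not reach 2-fold. The medians of the list thus lay below 0 and both peptide editors above it.

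Erap1 encodes the aminopeptidase that trims peptides in the endoplasmic reticulum. It was 8.40 in BMDM, 8.66 in pTAMs and 8.12 in mTAMs, and its other probe set 6.94, 7.51 and 6.66. Both probe sets were highest in pTAMs and lowest in mTAMs. Its difference of 0.26 in pTAMs against BMDM was among the 3 smallest of the members. Of 6 other peptidases none differed 2-fold in pTAMs, with a median near 0, and 1 was lower in mTAMs, the cytosolic bleomycin hydrolase Blmh, by 1.20.

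B2m, the light chain that every classical class I molecule needs, differed by at most 0.27 between the arrays in the deposited values. It was 13.51 in BMDM, 13.78 in pTAMs and 13.74 in mTAMs, and its other probe set 13.29, 13.54 and 13.51. Both probe sets were lowest in BMDM, with differences of 0.22 to 0.27. Under cyclic loess scaling B2m was 0.51 higher in mTAMs than in BMDM. Its values lay close to the highest of the arrays, 14.23 to 14.38, and whether that limited its differences was not tested.

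H2-M3 encodes a nonclassical heavy chain that shows peptides starting with formyl-methionine, as bacteria and mitochondria make them. It was 9.57 in BMDM, 10.13 in pTAMs and 9.43 in mTAMs. It was highest in pTAMs, by 0.56 over BMDM, and its mTAM value was 0.70 below that of pTAMs, the largest difference of any member between the TAM arrays. In that comparison 7.68% of the compared genes lay lower, against 8.97% for Tap1.

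Of 12 other class I heavy chain and class I-like genes with a probe set annotated to 1 symbol, 9 were compared. Their medians were 0.38 in pTAMs and 0.31 in mTAMs against BMDM. In pTAMs 1 was 2-fold higher and 1 lower, and in mTAMs 2 were higher and none lower. Fcgrt, the neonatal Fc receptor that pairs with beta-2 microglobulin, was 8.36 in BMDM, 9.63 in pTAMs and 9.93 in mTAMs. Cd1d1, which shows lipids to natural killer T cells, was 7.18, 7.61 and 8.40. H2-T24 was 8.80 in BMDM, 7.28 in pTAMs and 8.08 in mTAMs, and it was the lower one in pTAMs. The classical heavy chains H2-K1 and H2-D1, named here for their role, were 12.72, 13.23 and 13.27, and 12.61, 12.97 and 13.37. Neither reached 2-fold in the probe set read, but other probe sets did: 1 of H2-K1 differed by 1.19 in pTAMs and 1.12 in mTAMs, and 1 of H2-D1 by 0.92 and 1.96. Heavy chain genes are near-identical to each other and vary between mouse strains, and with the BMDM strain not given, strain and condition cannot be told apart for their probes. The probe sets read for H2-K1, H2-D1, H2-T3 and Cd1d1 are marked by name as shared with other transcripts. Other heavy chains of the H2-Q and H2-T families had no probe set annotated to 1 symbol.

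**Figure D3:**
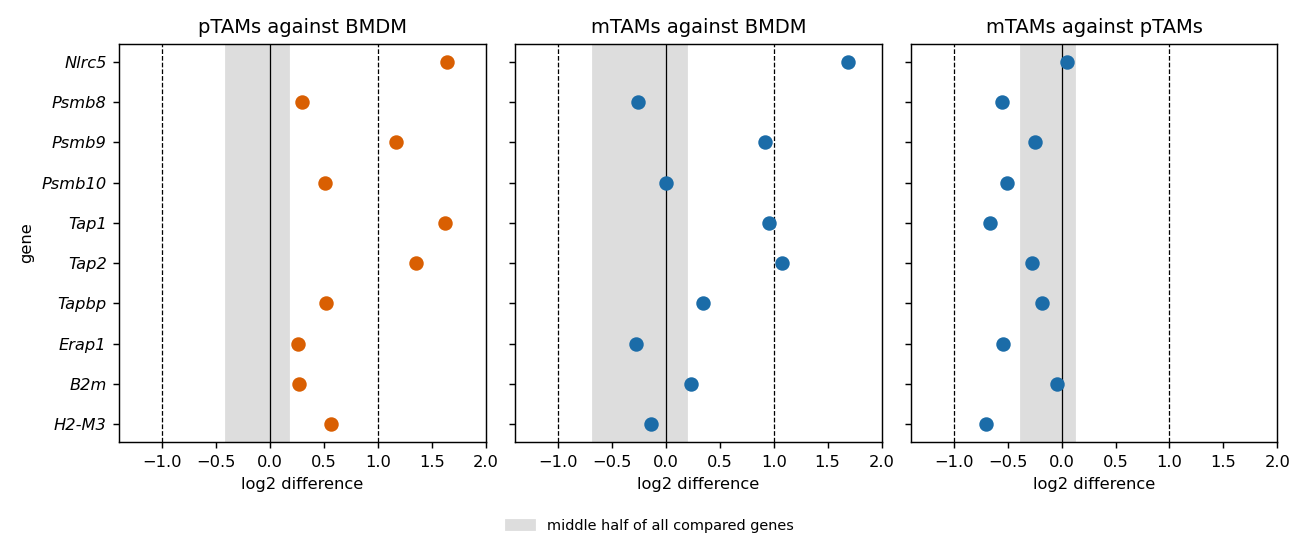
Log2 difference (horizontal axis) of the 10 genes in each of the 3 comparisons, 1 point per gene. Grey bands hold the middle quartiles of all compared genes and dashed lines mark 2-fold. All 10 points of pTAMs against BMDM lie above 0 and right of the band, and in mTAMs against pTAMs 9 lie below 0 (7 under cyclic loess scaling) and none reaches 2-fold.

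The only spread in the data is that between probe sets of the same gene, which is technical and holds no variation between mice. Its SD was 0.35 for pTAMs against BMDM, over 4817 genes with several probe sets, 0.44 when mTAMs were set against BMDM and 0.26 when they were set against pTAMs. In pTAMs against BMDM, the differences of B2m, Psmb8 and Erap1 were smaller than this SD and those of the other 7 members larger. In mTAMs against BMDM, those of Nlrc5, Tap2, Tap1 and Psmb9 were larger and those of the other 6 smaller. In mTAMs against pTAMs, those of H2-M3, Tap1, Psmb8, Erap1, Psmb10 and Tap2 were larger, Tap2 narrowly with -0.27. For a difference between 2 genes the same spread comes to 0.49 in pTAMs and 0.62 in mTAMs against BMDM, and all 3 immunosubunit pairs exceeded it in both.

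Regulators of the pathway were read beside its genes. Of 13 other regulators, 2 passed 2-fold in pTAMs and 3 in mTAMs, all upward, with medians of 0.23 and 0.31. Irf1, an interferon-induced activator of Tap1, Psmb9 and class I genes, was 9.05 in BMDM, 11.38 in pTAMs and 11.62 in mTAMs, 5.03-fold and 5.94-fold above BMDM. Ciita was 4.73 in BMDM, under the floor, with 7.88 in pTAMs and 7.31 in mTAMs, at least 5.98-fold and at least 4.03-fold higher. Irf1 and Ciita were thus lower in BMDM than on both TAM arrays, as Nlrc5 was. Irf2 was 8.50, 9.34 and 9.56, and the regulators 2-fold higher in mTAMs numbered 2 under median-centering. Irf8, a factor of the macrophage and dendritic lineages, was 9.95, 10.88 and 9.82, 2.08-fold lower in mTAMs than in pTAMs, but under 2-fold with cyclic loess scaling.

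Of 7 genes of interferon-gamma signaling 3 were 2-fold higher in pTAMs, the kinase gene Jak2 by 1.74, the receptor gene Ifngr1 by 1.13 and the inhibitor gene Socs1 by 1.01, and the list's median was 0.96. In mTAMs 3 were 2-fold higher, Ifngr1 by 1.63, Jak2 by 1.29 and Jak1 by 1.00, with a median of 0.64. Under median-centering 2 were higher in each TAM array. Of 15 interferon-gamma response genes outside class I, 11 were 2-fold higher in pTAMs and 10 in mTAMs, with medians of 2.33 and 2.57, or 2.33 and 2.01 with values under the floor set to it. This list shares Irf1 and Ciita with the regulators and Socs1 with the signaling genes. Cxcl9, a chemokine that attracts T cells, was 3.40 in BMDM, under the floor, and 10.82 in pTAMs and 10.56 in mTAMs. By this probe set it was at least 45.9-fold and at least 38.3-fold higher. Its other probe set was 5.87, 7.02 and 6.83, with smaller differences from BMDM of 1.15 and 0.96. Cd274, encoding PD-L1, was 6.58, 10.57 and 9.77, and Gbp7, a guanylate-binding protein, 7.51, 11.29 and 10.92. These 3 genes were named as the largest differences of the list in pTAMs, so their size beside the 10 members follows from that choice.

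Of 16 type I interferon response genes, 1 was 2-fold higher in pTAMs and 2 were lower, and in mTAMs none was higher and 4 were lower. The medians were -0.65 and -0.69, on the other side of 0 from the members. Rsad2, encoding viperin, was 10.44 in BMDM, 11.76 in pTAMs and 11.34 in mTAMs. Usp18, which encodes a brake on the type I receptor, was 10.34, 9.08 and 8.76, and Oas3, an oligoadenylate synthetase, 8.85, 7.45 and 8.08. Mx1 was 9.06 in pTAMs and 7.60 in mTAMs, the one gene of the list 2-fold lower in mTAMs than in pTAMs.

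Of the MHC class II genes, 7 of 9 compared were 2-fold higher in pTAMs and 6 of 8 in mTAMs, with medians of 3.57 and 3.01. H2-Eb1, a class II beta chain, was 7.87 in BMDM, 12.85 in pTAMs and 12.52 in mTAMs, 31.6-fold and 25.1-fold above BMDM. H2-Ab1, the beta chain of the other class II molecule, was 7.92, 12.71 and 12.28, and Cd74, the invariant chain, 8.38, 13.03 and 12.70. These 3 genes were named as the largest differences of their list, so their size beside the class I processing genes follows from that choice. In mTAMs against pTAMs 2 of 9 were 2-fold lower, the peptide-exchange genes H2-DMb2 by 1.83 and H2-DMa by 1.11, and under cyclic loess scaling 1 was.

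**Figure D4:**
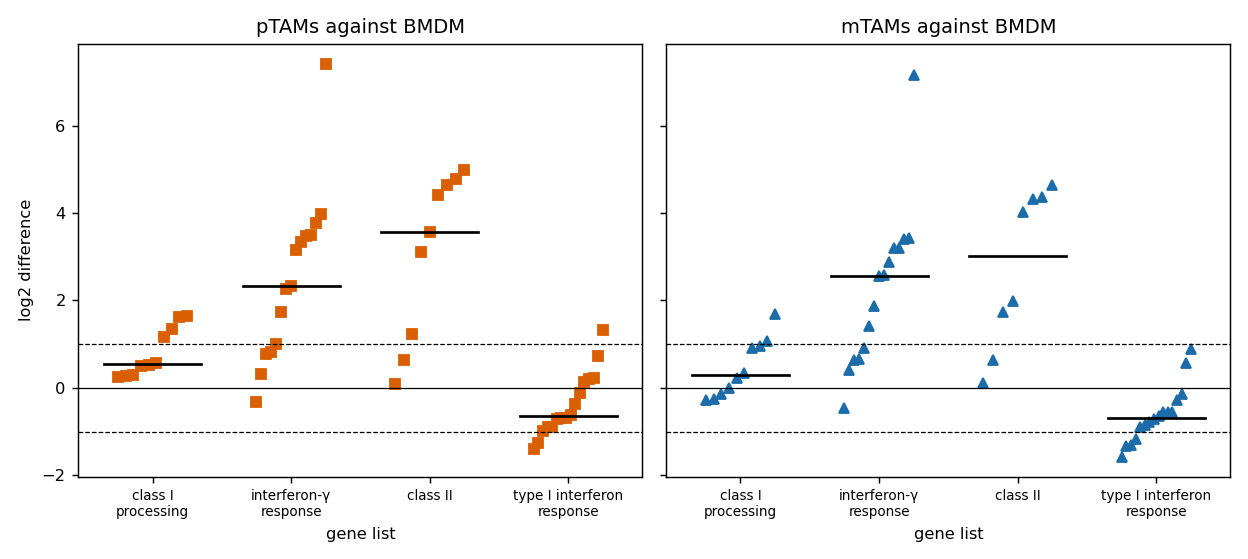
Log2 difference (vertical axis) in pTAMs and in mTAMs against BMDM for the 10 class I processing genes and for 3 gene lists, 1 point per gene. Bars are medians and dashed lines mark 2-fold. Medians in pTAMs are 0.54 for class I processing, 2.33 for the interferon-gamma response, 3.57 for class II and -0.65 for the type I interferon response.

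Of 8 genes known for cross-presentation, 2 were 2-fold higher in each comparison. In pTAMs against BMDM these were Rab27a, at least 2.87-fold, and Batf3 by 1.06, which fell short of 2-fold under median-centering. In mTAMs against both other arrays they were Rab27a and Rac2, which encodes a GTPase of the phagocyte oxidase. Rac2 was 10.98 in BMDM, 11.01 in pTAMs and 12.20 in mTAMs, and Rab27a 5.18, 6.82 and 9.01. Both are also expressed by neutrophils.

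Markers of macrophages and of other cells were read on the same arrays. The macrophage markers, 10 genes, had log2 sums of 15.8, 15.7 and 15.6 on the BMDM, pTAM and mTAM arrays. Against BMDM, 4 of them were 2-fold higher in pTAMs and 3 in mTAMs. The only one 2-fold lower was Adgre1, which encodes F4/80, with -1.93 in pTAMs and -1.87 in mTAMs. Of 10 neutrophil markers 8 were 2-fold higher in pTAMs and 9 in mTAMs than in BMDM, their sum ran from 10.2 in BMDM to 15.0 in pTAMs and 16.1 in mTAMs, and S100a9 was 7.73, 13.75 and 14.30. All 8 alveolar macrophage markers were 2-fold higher in mTAMs than in pTAMs, with sums of 8.41, 11.5 and 14.0. The sums of both TAM arrays were led by Chil3, with 5.02, 11.20 and 13.50. Siglecf, Fabp1, Krt79 and Marco lay at or under the floor in BMDM and pTAMs. Of 4 compared between pTAMs and BMDM, 3 were 2-fold higher and 1 lower. Markers of epithelium or carcinoma summed to 8.96, 12.2 and 11.4 and those of fibroblasts to 8.21, 10.2 and 12.3. Dendritic cell markers, whose cells carry much class I and class II, summed to 8.55, 10.3 and 9.93, with Xcr1 and Itgae at or under the floor on all arrays. Of 7 compared with BMDM, 3 were 2-fold higher in pTAMs and 1 in mTAMs, and none was lower. Fscn1 was 4.07 in BMDM, under the floor, 9.57 in pTAMs and 8.97 in mTAMs. Flt3 was 5.69, 5.72 and 5.72, and Zbtb46 5.94, 5.99 and 5.91. B cell markers summed to 9.36, 9.68 and 10.6, with Cd79a, Cd79b and Ms4a1 under the floor throughout. Of 4 compared with BMDM, none was 2-fold higher in pTAMs and 2 were in mTAMs. These were Cd22, with 6.95, 7.08 and 8.74, and Ighm, with 8.49, 8.99 and 9.81. NK cell markers summed to 7.92, 8.97 and 9.22, with 5 of 8 under the floor throughout. Of 3 compared with BMDM, 1 was 2-fold higher in pTAMs, Klrk1, and 2 in mTAMs, Klrk1 and Gzmb. Klrk1 was 5.68, 8.13 and 7.05, and Gzmb 5.38, 5.97 and 8.22. T cell markers summed to 9.07, 8.52 and 9.25, with Cd3g, Cd8b1 and Cd5 at or under the floor on all arrays. Their members differed in direction, since Cd3d was 5.86 in BMDM, 6.03 in pTAMs and 8.31 in mTAMs, and Cd28 was 7.78 in BMDM and under the floor in both TAM arrays. Endothelial markers summed to 8.53, 8.82 and 8.25. The part of these cells in the values of the class I processing genes was not tested.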

How the data were processed

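RNA of BMDM, pTAMs and mTAMs was hybridised to 1 Affymetrix mouse array per group. The authors deposited RMA log2 values, which RMA background-corrects, quantile-normalizes and summarizes over the 3 arrays together. The sources used here do not state its version, and 21.4% of probe sets held 1 value on all arrays. Genes were named from the platform annotation: 34945 probe sets had 1 symbol, 932 several and 9160 none. Probe sets with several or none were not used for genes, and 34741 of the gene IDs were found in RefSeq. Log2 differences were computed with Python 3.11.15 and pandas 2.3.3, and other scalings with limma 3.58.1 in R 4.3.3. The counting was tested on data with known differences. The members and gene lists were chosen with earlier results of these data known. Of lists outside the members, all constitutive catalytic subunits were named, and otherwise genes at least 2-fold different, at most 3 per direction, with up to 3 markers per cell type beside those at or under the floor. Psme1, H2-K1 and H2-D1 were named outside this rule. Across the arrays, median values were 5.36 to 5.43 and 11423 to 11611 genes exceeded the floor. The number of arrays limits the precision. Median-centering, quantile and cyclic loess scaling, another choice of probe sets, floors and fold limits were tried.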

Additional observations from a re-analysis of the deposited data

How the results depend on the processing

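No member difference turned its direction past a called value under any alternative. The 3 mean shifts of the immunosubunits against their partners and the 3 medians of the members kept their sign under all alternatives run. Median-centering could not change the mean shifts. In mTAMs against BMDM the median of the members went from 0.29 to 0.55 under cyclic loess scaling. The count of members 2-fold higher in mTAMs than in BMDM was 2, and 4 under cyclic loess scaling, which added Tap1 with 1.16 and Psmb9 with 1.15, while quantile scaling added Tap1 with 1.01. Cyclic loess moved the median of all compared genes in that comparison from -0.11 to 0.00 and the share of higher genes among all 2-fold differences from 44.4% to 55.2%. With a 3-fold limit, 2 members remained in pTAMs against BMDM, Tap1 and Nlrc5, and 1 in mTAMs, Nlrc5. With a 1.5-fold limit the mTAM count was 4, and 2 members, Tap1 and H2-M3, were lower in mTAMs than in pTAMs. Outside the members, the assembly and activator genes 2-fold lower in mTAMs than in BMDM numbered 3, but 1 under quantile and 0 under cyclic loess scaling, and the interferon-gamma signaling genes higher in pTAMs 3, but 2 and 4. Median-centering took Tapbpl and Batf3 in pTAMs and 1 regulator and 1 signaling gene in mTAMs under 2-fold, and cyclic loess took Irf8 and 1 class II gene in mTAMs against pTAMs. The mean of all probe sets left 9 members to compare, because the mean of Tap1 lay under the floor, and a mean without probe sets under the floor on all arrays, chosen after seeing the data, gave the same members at 2-fold as the main choice. Leaving out a replicate could not be done with 1 array per group. No paired analysis was possible because each group has 1 array and the shared replicate number is only a name.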
